A study of Mus musculus with 18 samples.

Results

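Ago2 peaks that carry a predicted site for the seed family of miR-200b, miR-200c and miR-429 (the miR-200b family below) were described in the colonic epithelium of mice with and without oncogenic K-Ras. A peak is a stretch of RNA where crosslinked fragments held by Argonaute 2 (Ago2) pile up. The members were the merged peaks whose deposited annotation lists the family, written there as miR-200-3p joined with miR-429-3p, among its 8mer, 7m8 or 7A1 seed matches. This gave 341 of 5554 merged peaks, of which 5448 carry an annotation, under 324 gene labels. The best match was an 8mer in 153 members, a 7m8 in 144 and a 7A1 in 44. The libraries were made by HEAP, a form of CLIP-seq in which Halo-tagged Ago2 is pulled down after UV crosslinking so that the miRNAs and target fragments it held can be sequenced. Both groups were C57BL/6 mice aged 8 to 12 weeks with the alleles Halo-Ago2/+ and Fabp-Cre/+, and epithelium was enriched by scraping the distal colon. G12D mice also had K-Ras-G12D/+, and WT mice had only wild-type K-Ras. Fabp-Cre is a transgene that drives the Cre recombinase in intestinal epithelium, so Cre was present in both groups. Each group had 3 pulldown mRNA libraries and 3 miRNA libraries, and the 6 input libraries were not used here.

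The labels give replicate numbers without stating whether each library is a separate mouse, so the p-values cover only the spread among these libraries, which may be technical. A pulldown library held 148927, 723937 or 247358 reads in merged peaks in G12D and 100978, 54401 or 148770 in WT, so counting error was largest in WT 2. Between 3 and 4 members had 0 reads in a G12D library, against 94 to 130 in a WT library. Over all 5554 merged peaks these counts were 106 to 177 and 1294 to 1854. All 10 epithelial markers had an annotated peak, with 5663 to 7312 summed normalized reads in G12D libraries and 3081 to 4346 in WT libraries. None of 10 markers of muscle and stroma, of 10 of blood cells and endothelium, or of 5 of enteric neurons and glia had one. Peak height follows both how often Ago2 sat at a site and how much of the transcript there was, and these cannot be told apart here. In bulk tissue, fewer cells of a type and less RNA per cell cannot be told apart either.

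The miR-200 family is made from 2 gene clusters, with miR-200b, miR-200a and miR-429 in one and miR-200c and miR-141 in the other. A miRNA guides Ago2 to transcripts mainly through its seed, bases 2 to 8, and the bound transcript is repressed or degraded. The family is known for keeping epithelial cells epithelial by repressing the transcription factors Zeb1 and Zeb2, and its members are abundant in the gut lining. Its sequences fall into 2 seed groups that differ in a single seed base. The mature sequences from RefSeq (GRCm38.p6) show why sites of the groups are told apart, with the seed in capitals.
miR-200b-3p: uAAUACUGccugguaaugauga
miR-200c-3p: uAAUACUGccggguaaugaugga
miR-429-3p: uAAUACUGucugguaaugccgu
miR-200a-3p: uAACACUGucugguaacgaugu
miR-141-3p: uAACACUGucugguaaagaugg

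The first 3 share the seed AAUACUG and the last 2 the seed AACACUG. miR-429, miR-200a and miR-200b lie on the minus strand of chromosome 4 (156053916 to 156055706), and miR-141 and miR-200c on that of chromosome 6 (124717917 to 124718346). Read 5′ to 3′ on the transcript, the 8mer site for the miR-200b family is CAGTATTA, the 7m8 site CAGTATT and the 7A1 site AGTATTA. The 7m8 site for miR-141/200a is CAGTGTT, which differs from its counterpart at 1 base. An 8mer pairs with bases 2 to 8 and has an A opposite the first base of the miRNA. A 7m8 site lacks that A, and a 7A1 site lacks the pairing to base 8.

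The link between the annotation entries and these sites could be read on the 2 peaks of either family that lie wholly inside a RefSeq window around a gene start (GRCm38.p6, site in capitals). The first is the 3′ end, read on the transcript, of a 5′ UTR member of Sprr1a, a cornified envelope protein, at chr3:92485845-92485867 on the minus strand. The second is a 3′ UTR peak of Acads, a mitochondrial acyl-CoA dehydrogenase, at chr5:115110418-115110440 on the minus strand, which is no member.
Sprr1a: ctcttctctgAGTATTAggtaag
Acads: gagtttCAGTGTTtgagtcccca

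The Sprr1a peak was listed with a 7A1 match to the miR-200b family, and it holds AGTATTA. The Acads peak was listed with a 7m8 match to miR-141-3p, and it holds CAGTGTT. Only 13 merged peaks lie wholly inside such windows, so the other members could not be read this way, and their sites are the authors' entries.

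All 3 miRNAs of the seed family were among the most abundant in Ago2, with ranks of 3 (miR-200c-3p), 7 (miR-200b-3p) and 8 (miR-429-3p) of 459 by mean. miR-200b-3p had 16011, 18652 and 18380.3 normalized reads in the G12D libraries, against 16956, 9558 and 10510.2 in the WT libraries. The G12D values lay close together, and WT 1 lay among them while WT 2 and WT 3 were lower, so the groups overlapped. It averaged 17681 ± 1453 normalized reads in G12D and 12341 ± 4025 in WT (SD, n = 3 each; log2 fold change 0.56 ± 0.19 SE, limma adjusted p = 0.0364), where 9.06% of tested miRNAs were called higher, 6.69% lower and 15.7% in either direction. The call did not hold without G12D 2, G12D 3, WT 2 or WT 3 (limma adjusted p = 0.101, 0.132, 0.146 and 0.137), nor with edgeR, DESeq2 or other scalings.

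miR-200c-3p had 22788, 26378 and 23680.0 normalized reads in the G12D libraries, against 25389, 19747 and 16813 in the WT libraries, which overlapped (log2 fold change 0.25 ± 0.17 SE, limma adjusted p = 0.354). The remaining family miRNA, miR-429-3p, had 14895, 18395 and 15693 in the G12D libraries, against 19019, 10400.4 and 10213 in the WT libraries, which also overlapped (log2 fold change 0.36 ± 0.20 SE, limma adjusted p = 0.227). Both differences took the opposite sign under equal totals and under quantile normalization, and without WT 1 miR-429-3p passed at 0.66 (limma adjusted p = 0.00611). As a share of miRNA reads, the 3 together made up 11.6%, 12.3% and 12.3% in the G12D libraries, against 14.8%, 10.9% and 10.8% in the WT libraries. The share averaged 12.1 ± 0.386% in G12D and 12.2 ± 2.30% in WT (SD, n = 3 each). Of the sister seed group, miR-141-3p averaged 8390.4 ± 762 normalized reads in G12D and 6048 ± 1239.5 in WT without overlap, yet did not pass (log2 fold change 0.49, limma adjusted p = 0.0829).

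**Figure D1:**
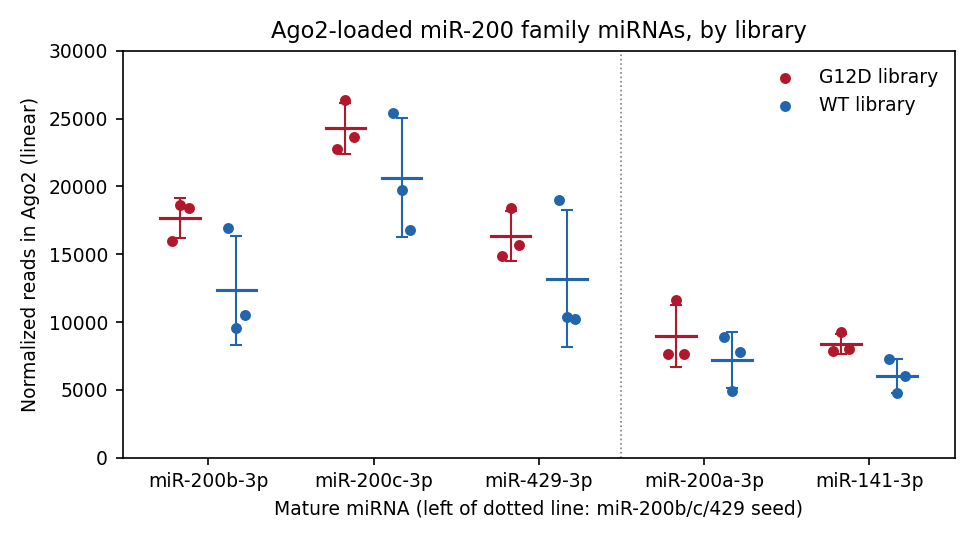
Normalized reads in Ago2 (linear axis) for each miR-200 family miRNA, 1 point per library, with bars at the mean and whiskers of 1 SD (n = 3 per genotype). The G12D points lie close together for miR-200b-3p, while WT points range from 9558 to 16956.

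The members were short, with a median width of 55 bases (28 to 145), close to the 56 of all annotated peaks. Of the 341, 176 lay in 3′ UTRs (51.6%, against 54.7% of annotated peaks), 89 in other exons, 57 in introns, 9 and 2 in the authors' starred 3′ and 5′ UTR classes and 8 in 5′ UTRs. Introns held 16.7% of the members and 8.13% of annotated peaks. They held 14.3% of peaks with a let-7 site, 25.2% with a miR-194 site and 7.04% with a miR-141/200a site. In the authors' peak lists for each genotype, 285 members overlapped a peak of the G12D list only, 53 a peak of both lists and 3 a peak of the WT list only, where 77.0% of all merged peaks overlapped the G12D list only. A peak had to be high in G12D to be on the G12D list, so the direction of a member on that list alone is not independent of it. The median member had a mean of 11.2 normalized reads in G12D and 4.21 in WT, near the 11.2 and 4.98 of all merged peaks.

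Among all 341 members, all 3 G12D libraries lay above all 3 WT libraries in 186, below them in 26, and overlapped with them in 129. Over all merged peaks, 50.1% lay above and 12.1% below. In 48 members every WT library was at 0, and in 3 mitochondrial members (mt-Rnr2, mt-Nd5 and mt-Cytb) all 6 libraries were. Every WT library was at 0 in 540 of all 5554 merged peaks. A mean of at least 5 normalized reads, needed for testing, was reached by 267 members. Of the 74 others, 73 were on the G12D list only, as were 1109 of all 1116 untested merged peaks. In limma on log2(normalized reads + 1) with adjustment over all 4438 tested peaks, 111 members were higher in G12D (41.6%) and 24 lower (8.99%). Of all tested peaks, 36.2% were higher and 12.7% lower. The median log2 fold change was 1.24 over the tested members and 1.05 over all tested peaks, so the members lay near the table as a whole. Groups did not overlap in 107 of the 111 and in 20 of the 24.

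The balance of calls depended on scaling and on the filter, and the number of calls also on single libraries. Quantile normalization called 65 higher and 40 lower (61.9% of calls higher, against 82.2% on the deposited scale), edgeR with TMM 87 and 40 (68.5%) and DESeq2 87 and 37 (70.2%). A mean of at least 20 normalized reads left 81 members, of which 33 were higher and 22 lower. Without G12D 2 there were 57 higher, without G12D 3 there were 70, and without G12D 1 there were 14 lower. With a single library left out, 78.1% to 87.8% of calls were higher, so the balance moved little. Each scaling also moved the median of all tested peaks, to 0.16 with quantile normalization, 0.47 with TMM and 0.66 with DESeq2, beside member medians of 0.36, 0.71 and 0.90. No member changed from higher to lower or back under any setting run.

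Calls followed how high a member already was in WT. Of the 158 tested members with a WT mean of at least 5 normalized reads, 34 were higher and 24 lower with a median of 0.37, and of all 2771 such peaks 462 were higher and 563 lower with a median of 0.16. Of the 109 tested members under that level, 77 were higher and none lower, and of all 1667 such peaks 1145 were higher and none lower. A peak under that level in WT had to be high in G12D to be tested, so this second group could hardly contain a fall. Among the 52 tested members on both genotype lists, 8 were higher and 21 lower with a median of -1.09, while of all 828 such peaks 115 were higher and 212 lower with a median of -0.45.

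**Figure D2:**
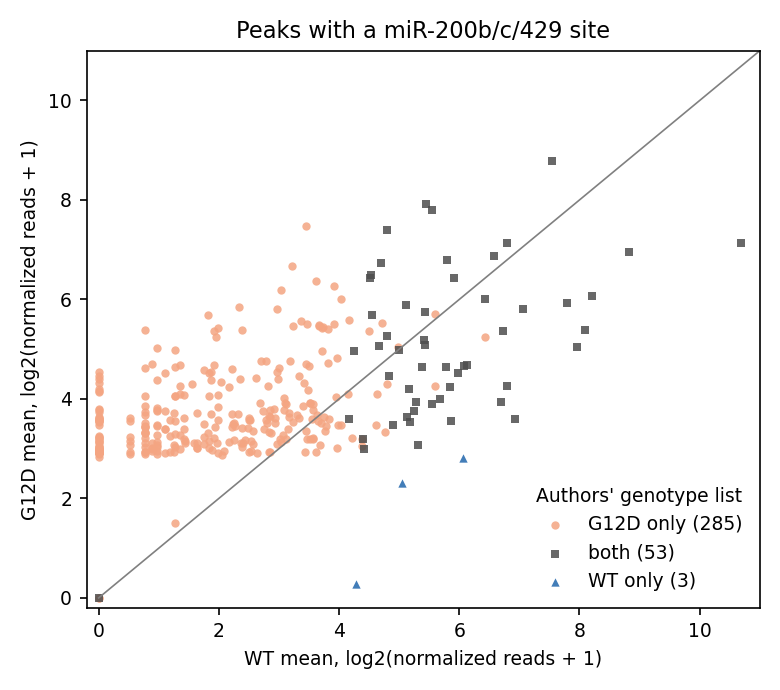
Mean of 3 G12D libraries against mean of 3 WT libraries for all 341 members, both as log2(normalized reads + 1), coloured by the authors' genotype list, with the line of equality. The 285 peaks of the G12D list crowd at low WT means, and the 53 peaks of both lists spread on either side of the line.

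Members together held 3.90%, 6.10% and 4.29% of peak reads in the G12D libraries, against 3.56%, 2.99% and 4.92% in the WT libraries, and the groups overlapped. WT reads were far more concentrated: the 10 members with most reads held 18.5% to 21.5% of member reads in G12D libraries and 39.2% to 55.0% in WT libraries. The Fryl exon peak alone took 1.96%, 2.08% and 1.40% of member reads in the G12D libraries, against 20.7%, 16.6% and 27.7% in the WT libraries. Without it the members held 3.82%, 5.98% and 4.24% of peak reads in the G12D libraries, against 2.85%, 2.51% and 3.61% in the WT libraries, and the groups no longer overlapped. The Fryl peak was picked from these same values, and its removal had to lower the WT shares most. The separation is therefore no result about the family.

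That Fryl peak (chromosome 5, 73041543 to 73041595, minus strand, GRCm38, 8mer) was the highest member and also fell most. Fryl encodes a furry-like protein of a family linked to cell shape. Its peak had 124, 189 and 107 normalized reads in the G12D libraries, against 1579, 783 and 2611 in the WT libraries. Every G12D library lay below every WT library, by several fold (log2 fold change -3.43 ± 0.46 SE, limma adjusted p = 0.000291). The pooled reads ratio of G12D over WT was 0.0864 (95% counting interval 0.0807 to 0.0925). Fryl's second member, an intronic 7m8 peak, did not pass (log2 fold change -0.48 ± 0.60 SE, limma adjusted p = 0.524), nor did its 2 other tested peaks, at 0.69 and 1.16.

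Atp1b1, a subunit of the sodium pump, was also among the highest members. It had 340.3, 546 and 425 normalized reads in the G12D libraries, against 244, 133 and 177 in the WT libraries at its exon 8mer peak (chromosome 1, 164438422 to 164438485, minus strand). All G12D values lay above the WT values (log2 fold change 1.26 ± 0.36 SE, limma adjusted p = 0.0131), though the call was lost without G12D 2 (limma adjusted p = 0.0626), with TMM, and in limma with no variance trend (adjusted p = 0.0574). A second Atp1b1 member, an intronic 8mer that also holds a miR-141 entry, had 9.82, 16.1 and 11.5 normalized reads in the G12D libraries, against 2.12, 0 and 1.29 in the WT libraries (log2 fold change 2.78 ± 0.65 SE, limma adjusted p = 0.00487). Of 10 other tested Atp1b1 peaks, 6 were higher and 2 lower, with log2 fold changes from -3.83 to 3.29.

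Kif21b, a kinesin motor, had 63.3, 143 and 162 normalized reads in the G12D libraries, against 414, 229 and 708 in the WT libraries at its 3′ UTR 8mer peak (log2 fold change -1.83 ± 0.48 SE, limma adjusted p = 0.00837). The groups did not overlap, but without G12D 1 the call was lost at -1.41 (limma adjusted p = 0.0554). Of the 2 other tested Kif21b peaks, at -0.07 and 1.57, 1 was called higher and none lower. Pik3r1, the regulatory subunit of PI3-kinase, had 46.9, 80.7 and 70.4 normalized reads in the G12D libraries, against 239.9, 217 and 428 in the WT libraries at an exon 7m8 peak that also lists let-7 and miR-141 (log2 fold change -2.11 ± 0.37 SE, limma adjusted p = 0.00106). Its G12D libraries all lay well below the WT libraries. The 1 tested Pik3r1 peak that is no member did not pass, at 1.63. Gnai3, an inhibitory G protein alpha subunit, had 31.6, 44.4 and 20.1 normalized reads in the G12D libraries, against 318, 81.1 and 342 in the WT libraries at its 3′ UTR 8mer peak (log2 fold change -2.72 ± 0.53 SE, limma adjusted p = 0.00184), with WT 2 lower than the other WT libraries but still above G12D. Without WT 2 its log2 fold change was -3.39.

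Dmbt1, a scavenger receptor glycoprotein secreted at mucosal surfaces, had 238, 192 and 297 normalized reads in the G12D libraries, against 63.7, 37.7 and 25.8 in the WT libraries at its exon 8mer peak (log2 fold change 2.56 ± 0.39 SE, limma adjusted p = 0.000457). Cpeb4, which binds mRNA and controls its polyadenylation in the cytoplasm, had 162, 213 and 294 normalized reads in the G12D libraries, against 40.3, 55.1 and 42.5 in the WT libraries at its exon 8mer peak (log2 fold change 2.22 ± 0.35 SE, limma adjusted p = 0.000518). Both were higher in every G12D library than in any WT library. Rps6ka3, a kinase activated by growth factor signalling, had 27.3, 79.6 and 73.3 normalized reads in the G12D libraries, against 202, 72.5 and 389 in the WT libraries at its exon 7A1 peak. The groups overlapped and the call (log2 fold change -1.70 ± 0.58 SE, limma adjusted p = 0.0306) was lost when any library other than WT 2 was left out, at limma adjusted p = 0.0599 to 0.155, and also without the filter and without the variance trend; without WT 2 the value was -2.35. Vmp1, an endoplasmic reticulum protein of autophagy, had 122, 148 and 147 normalized reads in the G12D libraries, against 113, 86.9 and 131 in the WT libraries, overlapped and did not pass (log2 fold change 0.35 ± 0.32 SE, limma adjusted p = 0.383).

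**Figure D3:**
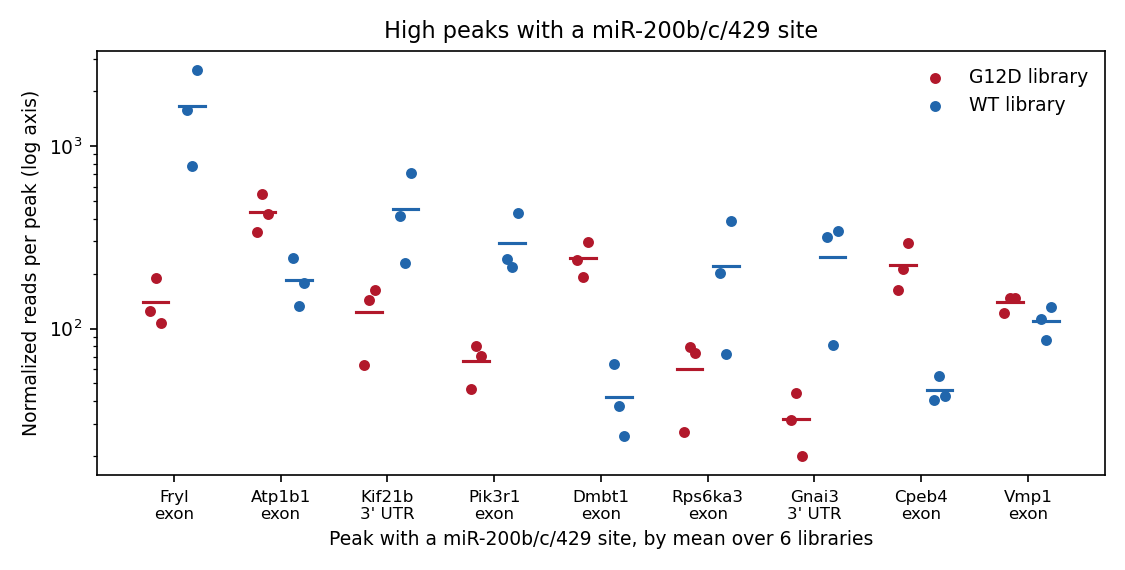
Normalized reads (log axis) in each library for the described members of highest mean, with bars at group means (n = 3 per genotype). Fryl, Kif21b, Pik3r1 and Gnai3 are separated with G12D lower, Atp1b1, Dmbt1 and Cpeb4 with G12D higher, and Rps6ka3 and Vmp1 overlap.

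The 10 members that rose most had between 0 and 2 WT reads in all, so their log2 fold changes depend on the added 1 and are no bounds. Clca4a, of a family that regulates chloride channels in gut epithelium, had 23.99, 54.9 and 43.1 normalized reads in the G12D libraries, against 2.12, 0 and 0 in the WT libraries at an exon 7m8 peak (log2 fold change 4.76 ± 0.69 SE, limma adjusted p = 0.000379). That is 348 reads over the G12D libraries and 1 over the WT libraries, a depth-adjusted ratio of 77.4 (95% counting interval 13.8 to 3066). Of its 5 other tested peaks, 4 were higher and none lower. Ddah1, which breaks down methylated arginines, had 27.3, 20.01 and 19.4 normalized reads in the G12D libraries, against 0, 0 and 0 in the WT libraries at an intronic 7A1 peak (log2 fold change 4.52 ± 0.58 SE, limma adjusted p = 0.000269), at least 11.05-fold higher with WT set at 3 counts over the group. Its 2 other tested peaks did not pass, at -0.83 and -0.46. Ccnc, the cyclin of the Mediator kinase module, had 16.4, 31.4 and 15.8 normalized reads in the G12D libraries, against 0, 0 and 0 in the WT libraries at a 5′ UTR 8mer peak (log2 fold change 4.40 ± 0.59 SE, limma adjusted p = 0.000293), at least 14.01-fold higher.

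Col4a3bp, the ceramide transfer protein, was at 0 in WT at an intronic 8mer peak and at least 12.01-fold higher in G12D (log2 fold change 4.27 ± 0.58 SE, limma adjusted p = 0.000293). Acaca, the acetyl-CoA carboxylase that starts fatty acid synthesis, had 305 reads in G12D and 1 in WT at its 3′ UTR (log2 fold change 4.23 ± 0.74 SE, limma adjusted p = 0.00101). Alg10b, a glucosyltransferase of N-glycan assembly, Dgka, a diacylglycerol kinase, and Rps6kb1, the S6 kinase downstream of mTOR, were at 0 in every WT library and at least 14.8-fold, 10.4-fold and 10.1-fold higher in G12D, each in its 3′ UTR. Kctd10, an adaptor of cullin ubiquitin ligases, had 179 reads in G12D and 1 in WT, and Atp2a2, the calcium pump of the endoplasmic reticulum, 155 and 2. These 7 log2 fold changes lay between 4.04 and 4.27, and limma adjusted p between 0.000293 and 0.00101. All 10 calls held under every alternative that tested the peak, and the value was 4.89 for Acaca without WT 2 and 4.65 for Atp2a2 without WT 3.

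Of the members that fell, 21 of 24 lay on both genotype lists and 15 in 3′ UTRs. Of all 563 peaks called lower, 212 lay on both lists, 330 on the WT list only and 163 in 3′ UTRs. Only 0.88% of members were on the WT list only, against 8.01% of all merged peaks. After Fryl, Ank3 fell most among the members. It encodes ankyrin-G, a scaffold of the lateral membrane of epithelial cells, and had 6.54, 16.9 and 10.1 normalized reads in the G12D libraries, against 117, 75.4 and 169 in the WT libraries at its 3′ UTR 7m8 peak (log2 fold change -3.33 ± 0.45 SE, limma adjusted p = 0.000293). The lowest WT library was several times the highest G12D library. Of its 2 other tested peaks, 1 was called higher and the other did not pass. Jun, a subunit of the transcription factor AP-1, had 8.72, 28.1 and 17.95 normalized reads in the G12D libraries, against 110.4, 37.7 and 180.4 in the WT libraries at its 3′ UTR 8mer peak (log2 fold change -2.40 ± 0.58 SE, limma adjusted p = 0.0057), and without WT 2 the value was -3.02. Of its 3 other tested peaks, at 0.69 to 3.37, 1 was called higher and none lower.

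Stard4, a cholesterol carrier, had 7.63, 13.00 and 11.5 normalized reads in the G12D libraries, against 42.5, 60.9 and 68.3 in the WT libraries at its 3′ UTR 7A1 peak (log2 fold change -2.32 ± 0.42 SE, limma adjusted p = 0.00125). Nmt1, which attaches myristate to proteins and overlaps the label Gm26668 here, had 10.9, 11.1 and 20.8 normalized reads in the G12D libraries, against 125, 89.8 and 91.5 in the WT libraries at an exon 8mer peak (log2 fold change -2.80 ± 0.40 SE, limma adjusted p = 0.000333). Akap9, which anchors protein kinase A at the Golgi and centrosome, was the only intronic member called lower (log2 fold change -2.56 ± 0.65 SE, limma adjusted p = 0.00718), with 5.45, 4.33 and 2.15 normalized reads in the G12D libraries, against 31.8, 11.6 and 52.8 in the WT libraries. In all 3 the groups did not overlap.

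Fold changes were close between site types and further apart between transcript regions. The 118 tested 8mer members had 53 higher, 11 lower and a median log2 fold change of 1.30, the 111 with a 7m8 site 44, 8 and 1.16, and the 38 with a 7A1 site 14, 5 and 1.13. Just outside the rule, 82 peaks with only a 6mer match had 54 tested, 14 higher and 6 lower, with a median of 0.62, and their median mean level was 8.50 normalized reads, against 8.98 for 7A1 members. In 3′ UTRs the 148 tested members had 34.5% higher and 10.1% lower (51 and 15, median 1.02), and all 2393 tested 3′ UTR peaks 37.7% and 6.81% (median 1.23). In exons the 72 tested members had 34.7% higher and 9.72% lower (25 and 7, median 1.01), and all 1438 tested exon peaks 28.7% and 18.6% (median 0.61).

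In introns 28 of 33 tested members were higher and 1 lower, with a median of 3.10, or 2.79 with members at 0 in WT set at their bound. All tested intronic peaks had 180 of 275 higher and 49 lower, with a median of 2.70, or 2.51 with such bounds. Intronic members were low in WT, with a median of group means of 10.04 normalized reads in G12D and 0.708 in WT. In 24 of the 57 every WT library was at 0, beside 140 of all 443 annotated intronic peaks. Only 6 of the intronic members had a WT mean of at least 5, of which 2 were higher and 1 lower, with a median of 1.13. The highest called intronic member was that of Ick, the intestinal cell kinase, with 50.2, 60.4 and 41.7 normalized reads in the G12D libraries, against 2.12, 2.90 and 2.58 in the WT libraries (log2 fold change 3.86 ± 0.49 SE, limma adjusted p = 0.000258); this peak was picked after its values were seen.

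**Figure D4:**
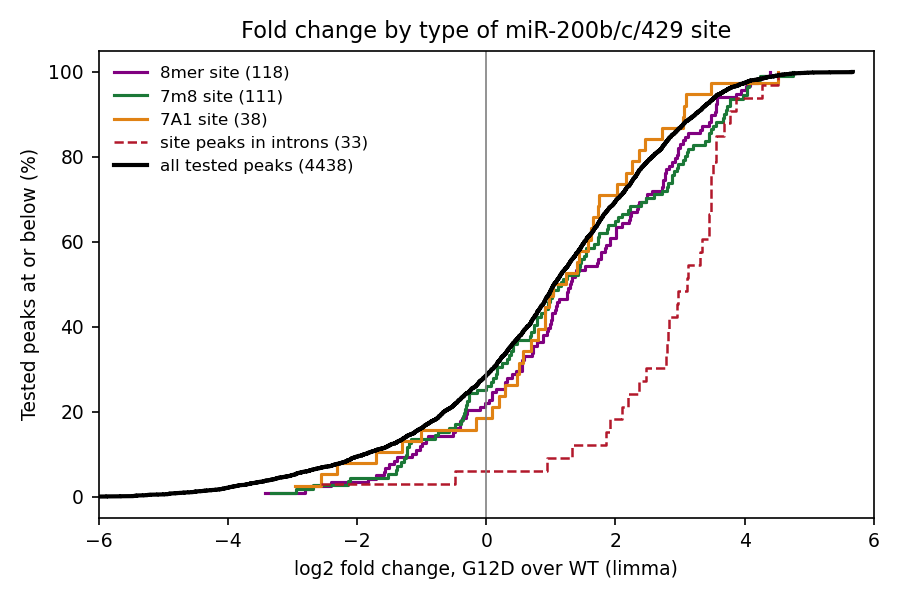
Cumulative share of tested peaks (percent) at or below each log2 fold change, G12D over WT, for members by best site, for the 33 intronic members and for all 4438 tested peaks. The 3 site types run close to the curve of all peaks, with medians of 1.13 to 1.30 beside 1.05, while intronic members sit to the right.

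Where a gene had both a member and another tested peak, the member was above them about as often as below in 3′ UTRs and exons. There were 145 such members of 133 gene labels, and the member's log2 fold change minus the median of the other peaks had a median of 0.28 (quartiles -1.20 and 1.67), with 83 of 145 above. In 3′ UTRs the median difference was 0.09 over 83 members, 43 of them above, and in exons -0.08 over 39, 19 of them above. In introns it was 1.83 over 17 members, 16 of them above; most intronic members were near 0 in WT and reached the tested level through G12D, so this direction was largely fixed by the filter. Members and other peaks of a gene share libraries and a transcript, so these are descriptions without a test.

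Another 7-mer or longer match was listed in 163 members and none in 178. let-7 sites were in 14 members (4.11%, against 9.53% of annotated peaks), of which 4 were higher and 4 lower. miR-194 sites were in 13 members (3.81%, against 6.19%), of which 4 were higher and 1 lower. These counts run over all members, tested or not, and 36.2% of all tested peaks were higher and 12.7% lower. The sister seed of miR-141/200a was in 6 members. Kif21b and Pik3r1 were lower, the intronic Atp1b1 member and Mbnl1 higher, Ccng2 did not pass and Esrp1, an epithelial splicing factor, was not tested. The match to miR-374b-5p stood out in number, since 10 of the 17 annotated peaks that hold one were members. Its 7m8 site TATTATA shares 5 bases with the end of the 8mer CAGTATTA, and 8 of the 10 had the 8mer, so both entries can come from overlapping bases. Whether they do in these peaks could not be read. Of the 10, 5 were higher, Atp10b, Esyt2, Sec23a, Alg10b and Scaf4, and none lower, while Ankrd44, Car1 and St3gal3 were not tested.

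Beside peaks of other families the members lay within the range. Of 434 tested let-7 peaks 154 were higher and 50 lower (median 0.88), of 269 tested miR-194 peaks 120 and 21 (median 1.41), and of 117 tested miR-141/200a peaks 36 and 17 (median 0.75), beside 111 and 24 of 267 (median 1.24) for the miR-200b family. Differences between these families were not tested.

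Of 63 listed symbols of genes reported elsewhere as targets of the miR-200b family, which include an older name for 2 of them, 19 had an annotated peak and 7 of these a member, and none of the peaks analysed here was labelled Zeb1, Zeb2 or Fn1. Of the 6 tested, 2 were higher and 1 lower, with a median of 0.76, beside 36.2% higher, 12.7% lower and a median of 1.05 over all tested peaks. Egfr, the epidermal growth factor receptor, had 6.54, 23.7 and 20.1 normalized reads in the G12D libraries, against 0, 0 and 0 in the WT libraries at a 3′ UTR 7m8 peak (chromosome 11, 16912653 to 16912706, plus strand), at least 11.05-fold higher (log2 fold change 3.98 ± 0.63 SE, limma adjusted p = 0.000563). Its other peak was also higher, at 3.02. Sec23a, a coat protein of vesicles leaving the endoplasmic reticulum, had 23.99, 34.04 and 16.5 normalized reads in the G12D libraries, against 2.12, 0 and 2.58 in the WT libraries at a 3′ UTR 8mer peak (log2 fold change 3.47 ± 0.69 SE, limma adjusted p = 0.00206), with 210 reads in G12D and 3 in WT and a ratio of 15.6 (95% counting interval 5.26 to 76.1). Of its 2 other tested peaks, 1 was lower, at -2.51. For both genes every G12D library lay above every WT library.

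Fhod1, a formin that assembles actin, was the target that fell. Its 3′ UTR peak lists the family in 2 columns, with an 8mer as the best site, and had 19.6, 13.2 and 12.2 normalized reads in the G12D libraries, against 27.6, 40.6 and 82.5 in the WT libraries (log2 fold change -1.56 ± 0.48 SE, limma adjusted p = 0.0185). The groups did not overlap, yet the call was lost without G12D 2, G12D 3 or WT 3 (limma adjusted p = 0.0703, 0.0743 and 0.0700). Prkca, a protein kinase C, had 39.3, 68.3 and 46.7 normalized reads in the G12D libraries, against 40.3, 49.3 and 52.8 in the WT libraries at its 3′ UTR 8mer peak, a difference of 0.08 ± 0.36 SE that did not pass (limma adjusted p = 0.857). Its values interleaved, and the sign turned with TMM and DESeq2. Cfl2, a cofilin that severs actin, and Ywhag, an adaptor that binds phosphorylated proteins, did not pass either, at 0.56 ± 0.68 SE and 0.96 ± 0.88 SE, and both were negative under quantile normalization. Rnd3, an atypical small GTPase, was too low to be tested, with 58 reads in G12D and 2 in WT.

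In RAS, PI3-kinase and receptor signalling, 19 of 47 listed genes had an annotated peak and 6 a member. Of their 7 members, all tested, 4 were higher, among them Egfr, Rps6kb1 and Shc1, 1 was lower (Pik3r1) and 2 did not pass, with a median of 2.45, beside 36.2% higher, 12.7% lower and a median of 1.05 over all tested peaks. Shc1, an adaptor between receptors and RAS, had 8.72, 9.28 and 10.8 normalized reads in the G12D libraries, against 2.12, 0 and 1.29 in the WT libraries at a 3′ UTR 7A1 peak (log2 fold change 2.45 ± 0.63 SE, limma adjusted p = 0.00807). Akt2, a kinase downstream of PI3-kinase, did not differ beyond its spread at 0.00 ± 0.72 SE, with a 95% interval of -1.57 to 1.57. The second Pik3r1 member did not pass at -0.38 ± 0.66 SE.

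For the actin cytoskeleton and adhesion, 46 of 58 listed genes had an annotated peak and 8 a member, of which 5 were higher and 1 lower, with a median of 2.05, beside the same 36.2%, 12.7% and 1.05 over all tested peaks. Dsg2, a desmosomal cadherin, had 29.4, 70.8 and 22.3 normalized reads in the G12D libraries, against 4.25, 5.796 and 2.58 in the WT libraries at a starred 3′ UTR 7m8 peak (log2 fold change 2.88 ± 0.58 SE, limma adjusted p = 0.00212). Myo1d, an unconventional myosin, had 16.4, 13.00 and 17.95 normalized reads in the G12D libraries, against 2.12, 0 and 0 in the WT libraries at an intronic 7m8 peak (log2 fold change 3.51 ± 0.66 SE, limma adjusted p = 0.00152). Both were higher in every G12D library than in any WT library. Tln1 (talin, which links integrins to actin), Rock1 (a kinase that promotes actomyosin contraction) and Wasl (which starts actin branching, labelled together with RP23-392I2.3) were higher by 2.72, 2.37 and 1.73. The Wasl call was lost without G12D 1, G12D 2, G12D 3 or WT 3 (limma adjusted p = 0.0873, 0.139, 0.0818 and 0.0706), and under quantile normalization, TMM and DESeq2. Ocln, the tight junction protein occludin, fell, with 10.9, 7.22 and 13.6 normalized reads in the G12D libraries, against 21.2, 23.2 and 61.9 in the WT libraries at a 3′ UTR 7m8 peak (log2 fold change -1.52 ± 0.53 SE, limma adjusted p = 0.0316). Its groups did not overlap, and the call was lost without G12D 1, G12D 2, G12D 3 or WT 3 (limma adjusted p = 0.0755, 0.121, 0.0616 and 0.119). Cfl2 and Itga6, an integrin, did not pass.

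Of 42 colonocyte and goblet cell genes, 34 had an annotated peak and 3 a member. All 3 tested members, 2 of them in Nr3c2, were higher, where 36.2% of all tested peaks were, and 2 were not tested. Nr3c2, the mineralocorticoid receptor that controls sodium uptake in the distal colon, was the only gene with 3 members. Its exon 7m8 member had 12.00, 28.7 and 25.9 normalized reads in the G12D libraries, against 2.12, 5.796 and 0 in the WT libraries (log2 fold change 2.98 ± 0.77 SE, limma adjusted p = 0.00824), and the call was lost without G12D 2 or G12D 3 (limma adjusted p = 0.0571 and 0.0549), while the value was 3.62 without WT 2 and 2.24 without WT 3. Its intronic 7A1 member had 6.54, 18.4 and 8.62 normalized reads in the G12D libraries, against 0, 0 and 0 in the WT libraries (log2 fold change 3.49 ± 0.57 SE, limma adjusted p = 0.000681), a call lost under quantile normalization. A second intronic member, too low to be tested, had 4.36, 10.5 and 5.03 normalized reads in the G12D libraries, against 0, 0 and 0 in the WT libraries. The 3 had the same direction in every library. Of 8 other tested Nr3c2 peaks, 6 were higher and 1 lower, so the gene's other peaks moved as well. Klf3, a repressor of transcription, had 14.2, 28.1 and 17.2 normalized reads in the G12D libraries, against 0, 2.90 and 0 in the WT libraries at a 3′ UTR 7m8 peak (log2 fold change 3.67 ± 0.72 SE, limma adjusted p = 0.00182), and without WT 2 the log2 fold change was 4.32. The intronic member of Car1, a carbonic anhydrase of colonocytes, was not tested and had 3.27, 15.1 and 3.59 normalized reads in the G12D libraries, against 0, 0 and 0 in the WT libraries.

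Of 54 genes of transcription and chromatin, 26 had an annotated peak and 6 a member. Of 6 tested members 2 were higher and none lower, with a median of 0.72 (all tested peaks: 36.2% higher, 12.7% lower, median 1.05). Beside Klf3 this was Tcf7l2, a transcription factor of WNT signalling labelled together with Ppnr, with 18.5, 22.9 and 16.5 normalized reads in the G12D libraries, against 6.37, 2.90 and 0 in the WT libraries at an exon 8mer peak (log2 fold change 2.72 ± 0.76 SE, limma adjusted p = 0.0121). Its groups did not overlap, and leaving out G12D 1, G12D 2 or G12D 3 ended the call (limma adjusted p = 0.0524, 0.0685 and 0.0540), and the value was 3.35 without WT 1 and 1.91 without WT 3. Of 2 exon members of Tet2, which oxidizes methylated DNA, the higher had 15.3, 14.03 and 25.1 normalized reads in the G12D libraries, against 74.3, 23.2 and 45.1 in the WT libraries and narrowly missed the threshold (log2 fold change -1.24 ± 0.49 SE, limma adjusted p = 0.0525). It passed as lower in some alternatives, among them edgeR, DESeq2, quantile normalization and leaving out WT 2 (-1.67). Crebbp and Foxp1 did not pass, at 1.11 ± 0.88 SE and 0.33 ± 0.77 SE, and Foxo3 was not tested. Of 22 genes of the miRNA machinery 12 had an annotated peak and 3 a member, none called, with a median of -0.29. Cnot6, a deadenylase, was at 1.26 ± 0.86 SE, Tnrc6a, the partner through which Ago2 silences, at -0.29 ± 0.58 SE, and Dgcr8, which starts miRNA processing in the nucleus, at -0.79 ± 0.86 SE. Dgcr8 passed as lower with TMM (-1.77) and quantile normalization, and Cnot6 as higher without WT 2 (2.05). The only other tested Dgcr8 peak was called higher, at 4.54.

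**Figure D5:**
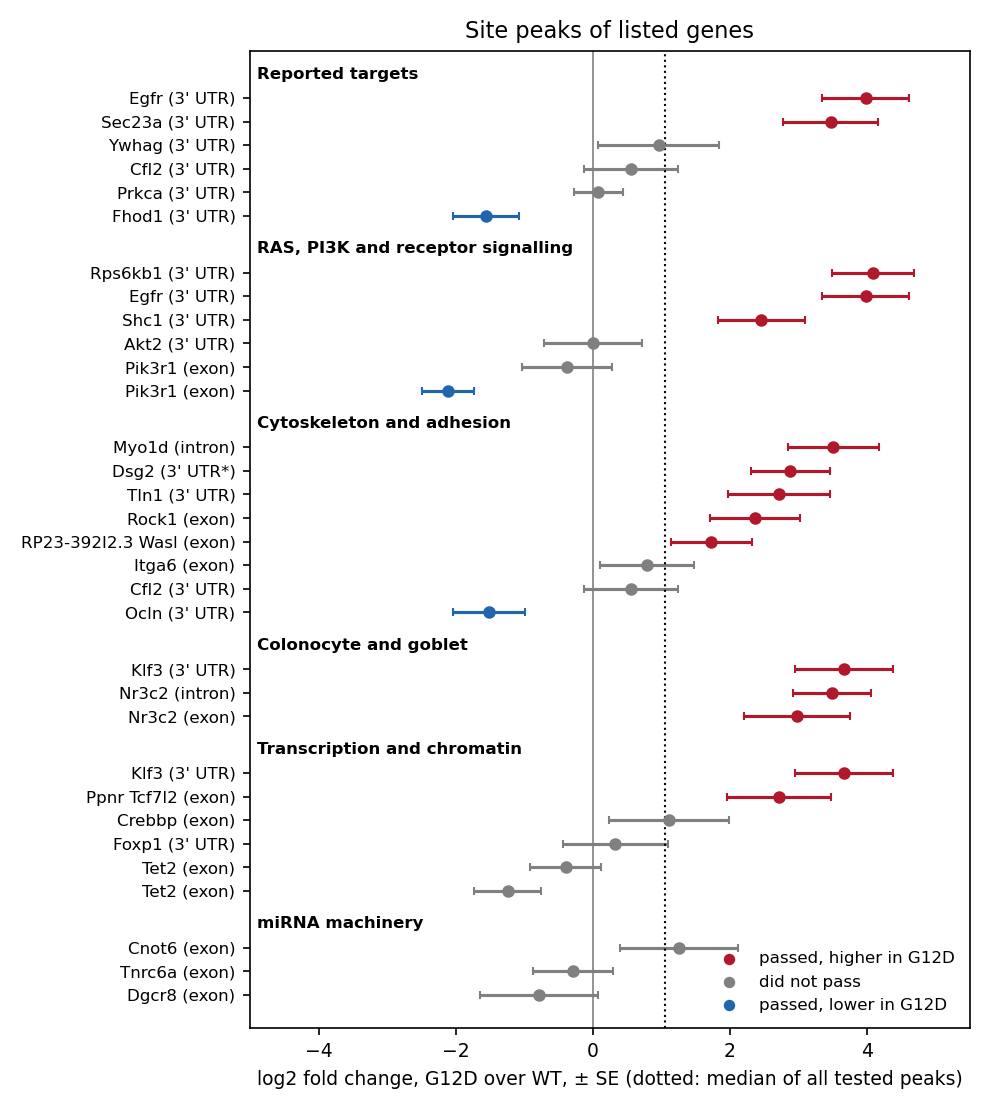
Log2 fold change, G12D over WT, with its SE, for tested members of the listed genes described in the text, grouped by list, with the median of all tested peaks (1.05) dotted. Colours show limma calls, and members of a gene in 2 lists appear in both.

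The authors' deposited table, made from the same libraries, gave an adjusted p for 338 members. There, 157 members were higher in G12D and 28 lower at 0.05, where 37.9% of the peaks in the authors' deposited table were higher and 11.6% lower. Of the calls made here, 110 of 111 higher and 24 of 24 lower were also called in the authors' deposited table, and none was called the other way. For miR-200b-3p the authors' deposited table gave 0.48 with an adjusted p of 0.234, so it was not called there.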

How the data were processed

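The 6 pulldown mRNA and 6 miRNA libraries were analysed. Per the submitters' processing notes, STAR 2.5.2b and DESeq2 were used with mm10/GRCm38; peak caller and counting rules: not given in the sources used here. The deposited normalized tables hold a signal made by the authors: reads per merged peak or mature miRNA divided by a factor per library. Multiples of this factor recovered whole reads, within 0.01, for 100.0% of values above 0. Peak columns carry only genotype code and replicate number and were read as pulldown mRNA libraries. The authors' deposited tables also give log2 fold changes and p-values, per the file headers, and the deposited peak lists a score per peak, which no value here uses. Annotation class, gene label and seed entries are the authors', and coordinates count from 1.

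The family was matched as miR-200-3p joined with miR-429-3p, the name the annotation gives this seed. Overlap with a genotype's peak list needed 1 base. limma 3.58.1 (R 4.3.3) with a variance trend was fitted to log2(normalized reads + 1) over each whole table, for peaks with a mean of at least 5 (4438 of 5554) and miRNAs of at least 10 (254 of 459), with Benjamini-Hochberg adjustment and a threshold of 0.05; it was tested on simulated data. Read ratios pool the recovered reads of each group, adjusted for depth, with exact 95% intervals and a floor of 3 counts over the group when WT had 0; intervals and floors cover counting error only. Alternatives were pseudocounts of 0.5 and 5, filters, scalings, no variance trend, a replicate block, each library left out, edgeR 4.0.16 and DESeq2 1.42.0 on recovered reads; edgeR with the deposited factors was added after seeing the data.

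Named peaks were the 10 called, non-overlapping members with the largest change in each direction, the 10 highest by mean, members of reported targets, genes with 3 or more members, and up to 4 per other list. The members and lists were chosen with earlier results of these data known. Values of a gene's other peaks and other named members outside this rule were chosen after seeing the data. A few members that this rule names are not reported here and are not drawn.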

Additional observations from a re-analysis of the deposited data

How the results depend on the processing

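The member counts of 111 higher and 24 lower moved by more than 1.5 times as follows. A mean of at least 20 normalized reads gave 33 higher, quantile normalization 65 higher and 40 lower, edgeR with TMM 40 lower and DESeq2 37 lower. Taking 3′ UTR members only gave 51 higher and 15 lower, and members on both genotype lists only 8 higher. Leaving out a library gave 57 to 126 higher and 14 to 32 lower. Correlations of same-numbered libraries, after group means were removed, lay between -0.04 and 0.04 for peaks. For miRNAs they were -0.00031, -0.42 and -0.32 for replicates 1, 2 and 3. With 3 libraries per group these values cannot settle whether the replicate numbers pair the samples. With the replicate number as a block 111 members were higher and 27 lower. The miR-200b-3p difference of 0.56 then missed the threshold (limma adjusted p = 0.0557).

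The miR-200b-3p call was also lost without the filter and without the variance trend (0.56 in both), under equal totals (0.20), quantile normalization (0.081), TMM (0.33), DESeq2 (0.46) and the deposited factors in edgeR (0.52), and ranged from 0.40 to 0.82 over libraries left out. miR-200c-3p was negative under equal totals (-0.11) and quantile normalization (-0.29), and ranged from 0.11 to 0.41 over libraries left out. miR-429-3p was negative under equal totals (-0.00077) and quantile normalization (-0.20), and ranged from 0.21 to 0.66.

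Of 36 called named members 27 stayed called under every alternative that tested them, and none changed sign. Uncalled ones that changed sign were, under quantile normalization, Cnot6 (-0.25), Cfl2 (-0.66), Itga6 (-0.37), Ywhag (-0.47) and Akt2 (-0.96); with TMM, Vmp1 (-0.21), Prkca (-0.41) and Akt2 (-0.29); with DESeq2, Vmp1 (-0.016), Prkca (-0.22) and Akt2 (-0.12); with a pseudocount of 0.5, Akt2 (-0.026); and over libraries left out, Prkca (-0.14 to 0.25), Pik3r1 (-0.70 to 0.21), Dgcr8 (-1.68 to 0.086), Ywhag (-0.00033 to 1.57), Akt2 (-0.38 to 0.72) and Tnrc6a (-0.68 to 0.070). The causes were not tested. The depth of WT 2, 54401 reads, limits members near 0 in WT.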

Other observations

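Of 16 gene labels with 2 or more members, none had members called in opposite directions. Of their 29 tested members 11 were higher and 3 lower, where 36.2% and 12.7% of all tested peaks were. Only 3 labels had 2 members called higher, so opposite calls had little room to occur. Malat1, a nuclear long noncoding RNA, had 2 exon 7m8 members, both higher. The first had 45.8, 118 and 53.1 normalized reads in the G12D libraries, against 6.37, 8.69 and 6.44 in the WT libraries (limma adjusted p = 0.000491). The second had 39.3, 55.9 and 43.8 in the G12D libraries, against 6.37, 20.3 and 1.29 in the WT libraries (limma adjusted p = 0.00756). The 38 other tested Malat1 peaks had a median log2 fold change of 1.79.

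Among members picked after their values were seen, Reep3, a shaper of the endoplasmic reticulum, had 134, 277 and 121 normalized reads in the G12D libraries at a 3′ UTR 8mer peak, against 14.9, 5.796 and 9.02 in the WT libraries (log2 fold change 4.02, limma adjusted p = 0.000178). Frmd4b, a scaffold protein, was called lower although WT 2 was at 0, with 0, 0.619 and 0 normalized reads in the G12D libraries, against 19.1, 0 and 36.1 in the WT libraries (limma adjusted p = 0.0399).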
